A study of Mus musculus with 2 samples.

Results

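The SLAM family receptors, their adaptor SAP and the kinase Fyn were examined as 10 genes in M210B4, an established line of mouse bone marrow stroma. The genes were taken by symbol, namely Cd84, Slamf1, Slamf6, Slamf7, Slamf8, Slamf9, Cd48, Cd244a, Sh2d1a (which encodes SAP) and Fyn, and all 10 were found among the 22180 genes that had a probe set with a single gene symbol. Of these genes 8 encode receptors of the family. A gene with several such probe sets was represented by the brightest. The cells were exposed for 24 h to an anti-CD84 antibody (clone 152-1D5) or to an IgG1 isotype control. Both cultures were kept in RPMI medium with 2% serum. The labels call the anti-CD84 cells CD84 activated. The sources used here do not say whether the clone recognises mouse CD84. The RNA of each culture went on 1 array (Affymetrix Mouse Gene 2.0 ST), which gives a log2 signal per probe set. There is no replicate, so each difference below sets 2 single arrays against each other, no test is possible, and the number of arrays limits the precision. The labels name no genetic change in the line, and other stromal cells were not sampled.

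SLAM receptors are immunoglobulin-type surface proteins of blood cells. Most of them bind the same receptor on a neighbouring cell, while CD244 binds CD48. The tails of several members carry a tyrosine motif that, once phosphorylated, is bound by the small SH2 adaptor SAP, which brings in the Src family kinase Fyn. Without SAP, the same motif can recruit the phosphatases SHP-1, SHP-2 and SHIP-1. The family is known mainly from lymphocytes, myeloid cells, platelets and blood stem cells, and the question here was which of its genes gave a signal in stroma and which differed between the antibodies.

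A gene was called detected when its log2 value lay above 4.84 on at least 1 array, which is the 95th percentile of 1394 olfactory and vomeronasal receptor genes that stroma is not thought to use. By this level 5 of the 10 genes were detected, against 59.9% of all genes. Only Fyn was above the level on both arrays, 1 of 10 against 53.0% of all genes. Slamf1, Slamf6 and Cd244a were above it in anti-CD84 cells alone, and Slamf8 in IgG1 cells alone. Cd84, Slamf7, Slamf9, Cd48 and Sh2d1a were below it on both arrays and were not detectable in these cells at this level. None of the 8 receptor genes was above the level on both arrays. Their log2 values ran between 3.73 and 5.07 in anti-CD84 cells, and between 3.81 and 4.96 in IgG1 cells.

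**Figure D1:**
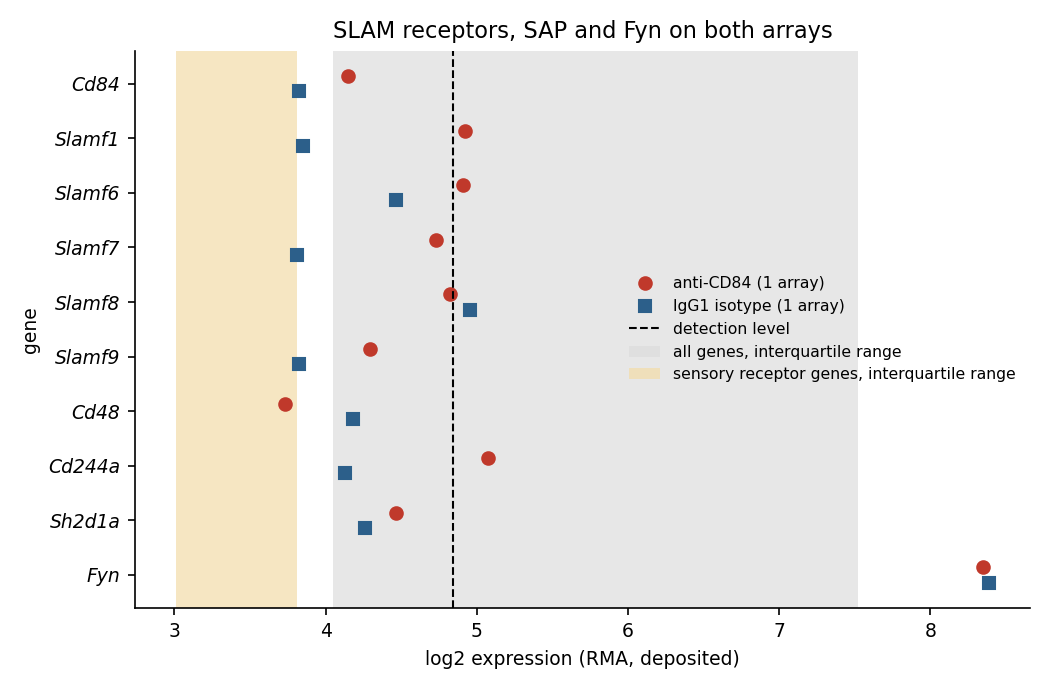
Deposited log2 expression of the 10 genes (down the page), with a red circle for the anti-CD84 array and a blue square for the IgG1 isotype array. The dashed line is the detection level of 4.84, and the shaded bands are the interquartile ranges of all gene values and of the sensory receptor gene values. Fyn lies near 8.4 on both arrays, and the other 9 genes lie between 3.73 and 5.07.

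Cd84, the gene of the receptor that the antibody is named for, had a log2 value of 4.15 in anti-CD84 cells and 3.82 in IgG1 cells. Both values lie below the detection level. Within the sensory receptor gene values they rank at the 85.0 percentile for the anti-CD84 array and the 75.6 percentile for the IgG1 array. Among all genes on the array, the mean level of Cd84 lay at the 23.3 percentile. Probe sets differ in affinity, so such a rank describes the signal of a probe set and not the number of transcripts. No fold is given for Cd84, as for every gene below the detection level on both arrays. Any protein on the cell surface was not measured.

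Slamf1, which encodes the self-binding receptor CD150 used to mark blood stem cells, had a log2 value of 4.93 in anti-CD84 cells and 3.85 in IgG1 cells. The measured difference was 1.08, but the IgG1 value lies below the detection level. A fold taken from the level itself is at least 1.06-fold, higher in anti-CD84 cells. Slamf6, the self-binding receptor Ly108 of T and NK cells, had 4.91 in anti-CD84 cells and 4.47 in IgG1 cells, and was at least 1.05-fold higher in anti-CD84 cells. Its second probe set, with 4.21 in anti-CD84 cells and 3.69 in IgG1 cells, was below the level on both arrays and so gives no direction. Slamf7, the self-binding receptor CRACC of NK and plasma cells, had 4.73 in anti-CD84 cells and 3.81 in IgG1 cells. Its measured difference of 0.92 lies wholly below the detection level, where values have no order.

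Cd244a encodes 2B4, the receptor on NK cells for CD48. It had a log2 value of 5.07 in anti-CD84 cells, the highest of any receptor of the family on either array, and 4.13 in IgG1 cells. It was at least 1.18-fold higher in anti-CD84 cells. Cd48, which encodes the lipid-anchored ligand of 2B4, had 3.73 in anti-CD84 cells and 4.18 in IgG1 cells. The receptor thus passed the detection level on 1 array, while its ligand passed it on neither.

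Slamf8 and Slamf9 encode family members with short tails, known mainly from myeloid cells. Slamf8 had 4.83 in anti-CD84 cells and 4.96 in IgG1 cells, just outside and just inside the detection level, and was at least 1.09-fold lower in anti-CD84 cells. Slamf9 had 4.29 in anti-CD84 cells and 3.82 in IgG1 cells. Sh2d1a, the gene of SAP, had 4.46 in anti-CD84 cells and 4.26 in IgG1 cells, so the adaptor that links these receptors to Fyn was not detectable on either array. Its value lay at the 90.8 percentile of the sensory receptor gene values for the anti-CD84 array and the 87.4 percentile for the IgG1 array.

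Fyn had a log2 value of 8.35 in anti-CD84 cells and 8.39 in IgG1 cells. Its mean level lay at the 84.1 percentile of all genes, and the difference was -0.04. Detected genes with a mean level between 8 and 9 were at least 1.5-fold apart in 9.85% of cases, and Fyn was not among them. The genes nearest to Fyn over the 2 log2 values were Ebag9 (8.35 in anti-CD84 cells and 8.38 in IgG1 cells), Lias (8.36 in anti-CD84 cells and 8.39 in IgG1 cells) and Ltn1 (8.36 in anti-CD84 cells and 8.41 in IgG1 cells). With 2 arrays this likeness says no more than that their levels are alike.

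Among the 5 detected members, Slamf1 and Cd244a were at least 1.5-fold higher in anti-CD84 cells by their measured values, and 0 were 1.5-fold lower. Over all 13284 detected genes, 10.7% were higher by 1.5-fold or more and 6.40% lower by as much. Those shares depend on the scaling, as 1427 genes were higher and 850 lower as deposited, against 1024 higher and 1128 lower once the difference was centred on the median of detected genes. The 2 called members passed the detection level only through the array on which they were high. Of all 705 genes above the level in anti-CD84 cells alone, 42.8% were at least 1.5-fold higher by the same count. With values floored at the detection level, Slamf1 differed by 0.09 and Cd244a by 0.23, and 0 of the 5 detected members were 1.5-fold apart. The median difference was 0.44 over the 5 detected members as measured and 0.07 with the floor, beside 0.09 as measured and 0.07 with the floor over all detected genes. The other 5 members were below the level on both arrays, so no direction is given for them.

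**Figure D2:**
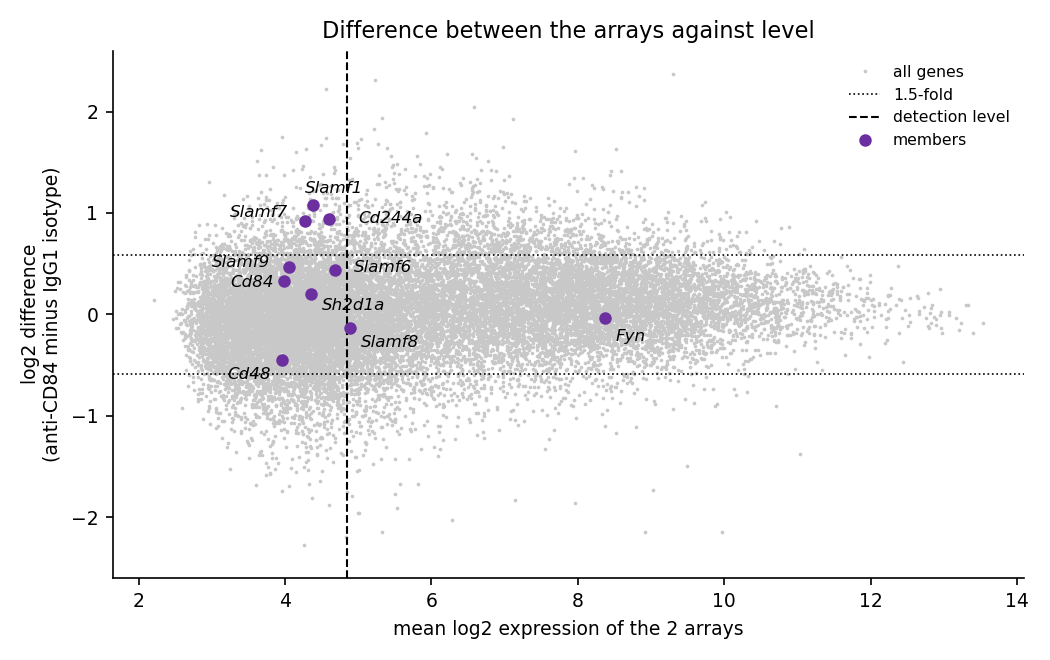
Log2 difference between the arrays (anti-CD84 minus IgG1 isotype, vertical axis) against the mean log2 level of the 2 arrays (horizontal axis). Each grey point is a gene, purple points are the 10 members, dotted lines mark 1.5-fold and the dashed line the detection level. Slamf1, Slamf7 and Cd244a lie above the upper dotted line at low level, and Fyn lies at a difference of -0.04. Slamf7 is below the detection level on both arrays, so its place gives no direction.

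The remaining genes of the SLAM and SAP families were also below the detection level on both arrays. Ly9, the self-binding receptor CD229, had 4.15 in anti-CD84 cells and 4.21 in IgG1 cells. Sh2d1b1 and Sh2d1b2 encode the EAT-2 type adaptors, which link SLAM receptors to signalling in NK and myeloid cells. Sh2d1b1 had 4.25 in anti-CD84 cells and 3.84 in IgG1 cells. Sh2d1b2 had 3.43 in anti-CD84 cells and 4.05 in IgG1 cells. Cd2, a relative that also binds CD48, had 3.81 in anti-CD84 cells and 4.44 in IgG1 cells. In all, 0 of these 4 genes were detected, against 59.9% of all genes.

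Fyn was not the sole kinase of its family with a signal. In a list of Src family kinases and their regulators, 7 of 11 measured genes were detected, Fyn included, or 63.6% against 59.9% of all genes. Of the 11, 6 were above the level on both arrays, or 54.5% against 53.0%. Both shares are near those of all genes. Yes1 had 8.24 in anti-CD84 cells and 7.93 in IgG1 cells, and Src had 7.37 in anti-CD84 cells and 7.69 in IgG1 cells. Frk, a more distant Src-related kinase, had 7.42 in anti-CD84 cells and 6.27 in IgG1 cells. It was 2.21-fold higher in anti-CD84 cells and the only detected gene of this list past 1.5-fold. Csk, the kinase that holds Src kinases inactive, had 7.99 in anti-CD84 cells and 8.09 in IgG1 cells. Ptpra, a phosphatase that can activate them, had 9.41 in anti-CD84 cells and 9.28 in IgG1 cells. Fgr, a Src kinase of myeloid cells, was above the level in IgG1 cells alone, with 4.83 in anti-CD84 cells and 5.19 in IgG1 cells. Blk, a B cell kinase (4.09 in anti-CD84 cells and 4.73 in IgG1 cells), the membrane adaptor Pag1 (4.30 in anti-CD84 cells and 4.76 in IgG1 cells), Ptpn22 (4.27 in anti-CD84 cells and 4.57 in IgG1 cells) and Ptprc, the leukocyte phosphatase CD45 (3.90 in anti-CD84 cells and 3.86 in IgG1 cells), were below it on both arrays.

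In a list of phosphatases and adaptors of signalling at SLAM tails, 18 of 19 genes were above the level on both arrays, against 53.0% of all genes. The list includes general signalling genes, and binding of their proteins to a SLAM tail was not tested. Of these 18, 0 were 1.5-fold apart, against 13.5% of all genes above the level on both arrays. Ptpn11, the gene of SHP-2, had 9.07 in anti-CD84 cells and 9.18 in IgG1 cells. Ptpn6, the gene of SHP-1, had 5.91 in anti-CD84 cells and 5.75 in IgG1 cells, and Inpp5d, the gene of the blood cell phosphatase SHIP-1, was below the level on both arrays with 4.66 in anti-CD84 cells and 4.76 in IgG1 cells. Ptpn6 and Inpp5d were picked out here after their values were seen, because they belong to the same set of tail-binding phosphatases as Ptpn11. Rasa1, a Ras inhibitor, had 9.81 in anti-CD84 cells and 9.92 in IgG1 cells, and the ubiquitin ligase gene Cblb had 9.78 in anti-CD84 cells and 9.74 in IgG1 cells. The largest differences were those of the adaptor genes Nck1 (-0.49), Nck2 (0.48), Sh3bp2 (0.46) and Shc1 (0.39).

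Among effectors placed after SAP and Fyn in lymphocytes, 19 of 21 measured genes were detected, or 90.5% against 59.9% of all genes. Of the 19, 1 was higher by 1.5-fold or more and 5 were lower by as much in anti-CD84 cells. That makes 31.6% past 1.5-fold in this list, against 17.1% of all detected genes. Zap70 and Arhgef6, among the 5, were detected only through the IgG1 array, on which they were high. Of the 16 genes above the level on both arrays, 1 was higher and 3 were lower by 1.5-fold, so 4 of 16 were called, against 13.5% of all genes above it on both arrays. The list was chosen with earlier results of these data known, so these shares are not independent of the values. Gata3, a transcription factor, had 5.09 in anti-CD84 cells and 6.02 in IgG1 cells, and was 1.91-fold lower in anti-CD84 cells. Lat, the T cell membrane scaffold, had 5.04 in anti-CD84 cells and 5.97 in IgG1 cells, and was likewise 1.91-fold lower. Syk, a tyrosine kinase of B and myeloid cells, had 6.03 in anti-CD84 cells and 6.84 in IgG1 cells, and was 1.76-fold lower. Zap70, its T cell relative, had 4.49 in anti-CD84 cells and 5.45 in IgG1 cells, and was at least 1.53-fold lower. Arhgef6 and the adaptor gene Lcp2 were the remaining calls and were named after their values were seen. Arhgef6 had 4.51 in anti-CD84 cells and 5.12 in IgG1 cells, and counted from the detection level it was at least 1.21-fold lower, short of 1.5-fold. Lcp2, the gene of the scaffold SLP-76, had 5.67 in anti-CD84 cells and 4.86 in IgG1 cells. All 6 had values under 7 on both arrays. Across genes, the standard deviation of the difference was 0.45 at a mean level of 4 to 5, 0.49 at 5 to 6 and 0.46 at 6 to 7.

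The brightest effectors were less far apart. Uvrag, of the autophagy complex that Slamf1 is known to contact in macrophages, had 9.48 in anti-CD84 cells and 8.92 in IgG1 cells, a 1.48-fold difference. Its partner Becn1 had 8.08 in anti-CD84 cells and 8.27 in IgG1 cells. Nfatc1, a calcium-dependent transcription factor, had 8.72 in anti-CD84 cells and 8.93 in IgG1 cells, and Bcl10, an adaptor towards NF-kB, had 8.43 in anti-CD84 cells and 8.36 in IgG1 cells. Over all 43 detected genes of these lists other than the 10 members, 7 were at least 1.5-fold apart, which is 16.3% against the 17.1% of all detected genes. Of the 39 above the level on both arrays 5 were as far apart, or 12.8% against 13.5%. Their median difference was -0.03, beside 0.09 over all detected genes.

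**Figure D3:**
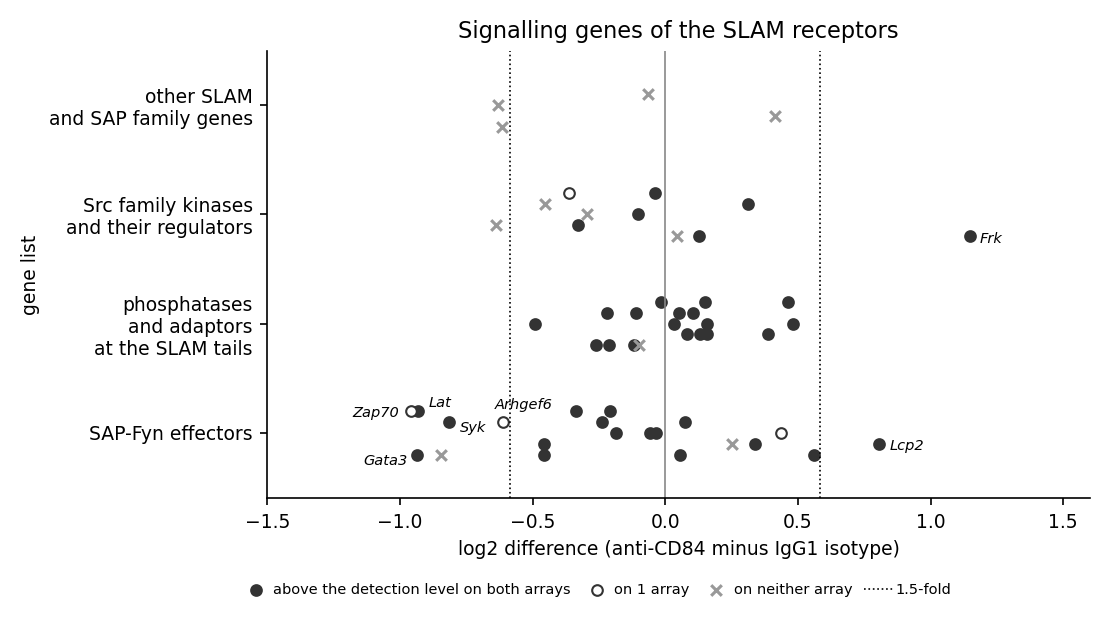
Log2 difference between the arrays (anti-CD84 minus IgG1 isotype, horizontal axis) for each measured gene of 4 lists (down the page). Filled circles are genes above the detection level on both arrays, open circles on 1 array and crosses on neither, and the vertical spread within a list has no meaning. The 7 labelled genes are detected and past the dotted 1.5-fold lines, and 6 of them are in the list of effectors.

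Markers of blood cells were set beside the SLAM genes, since a few such cells in a culture would carry both. Of 46 measured markers of blood cells 22 were detected, or 47.8% against 59.9% of all genes, and 14 were above the level on both arrays, or 30.4% against 53.0%. The pan-leukocyte list had the largest share, with 7 of 10 above the level on both arrays. These were Rac2 (6.62 in anti-CD84 cells and 7.10 in IgG1 cells), Arhgdib (6.56 in anti-CD84 cells and 6.06 in IgG1 cells), Lcp1, Itgb2, Coro1a, Cd53 and Spi1, and 0 of them were 1.5-fold apart. Ptprc, which marks nearly all leukocytes, Laptm5 and Was were below it on both arrays. Of 9 T cell markers 5 were detected, Cd4 and Cd28 on both arrays, whereas Cd3e, Cd3g, Cd8a and Cd2 were below the level on both. Of 10 monocyte and macrophage markers 5 were detected, Cd68 and Fcgr1 on both arrays, whereas Itgam, Adgre1, Lyz2, Itgax and Mpeg1 were below the level on both. Of 7 B cell markers only Ebf1, a factor that stromal cells also use, was detected (8.69 in anti-CD84 cells and 8.32 in IgG1 cells). Of 6 NK cell markers 2 were detected, and Prf1, with 6.16 in anti-CD84 cells and 5.25 in IgG1 cells, was 1.88-fold higher in anti-CD84 cells. Eomes was above the level in anti-CD84 cells alone, whereas Ncr1, Klrb1c, Klrk1 and Gzmb were below it on both arrays. Of 4 platelet markers 2 were detected, Itga2b on both arrays, and Pf4 was below the level on both. Genes named here outside the 3 brightest of a list were picked out after their values were seen. The summed linear signal of the 10 pan-leukocyte markers was 483 in anti-CD84 cells and 476 in IgG1 cells. With anti-CD84 cells first, the sums were 230 and 228 for T cell markers and 534 and 442 for B cell markers. They were 166 and 137 for NK cell, 251 and 276 for monocyte and macrophage and 77.0 and 86.7 for platelet markers. The differences between the arrays in the B cell and NK cell sums rest largely on a single gene each, Ebf1 and Prf1. These sums include genes below the detection level and do not measure a number of blood cells. The part of blood cells in the SLAM values was not tested. Stromal markers were detected in 11 of 15 cases, all on both arrays, or 73.3% against 53.0% of all genes. The brightest were Fn1 (13.34 in anti-CD84 cells and 13.25 in IgG1 cells), Col1a1 (12.52 in anti-CD84 cells and 12.53 in IgG1 cells) and Col1a2 (12.16 in anti-CD84 cells and 12.06 in IgG1 cells). Of the 11 detected, 3 were at least 1.5-fold higher in anti-CD84 cells and 0 were 1.5-fold lower. That is 27.3% against 13.5% of all genes above the level on both arrays. The list was chosen with earlier results of these data known, so this share is not independent of the values. These were the chemokine gene Cxcl12, 2.15-fold higher with 10.29 in anti-CD84 cells and 9.19 in IgG1 cells, the growth factor receptor gene Pdgfra, 1.89-fold higher with 10.21 in anti-CD84 cells and 9.29 in IgG1 cells, and the matrix gene Dcn, 1.69-fold higher with 9.86 in anti-CD84 cells and 9.11 in IgG1 cells. The stromal markers Eng, Nt5e, Lepr and Lum were below the level on both arrays.

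The SLAM receptor genes lie together on mouse chromosome 1, so their signal could be set beside that of the genes around them. From Cd244a to Slamf6, both included, the RefSeq table (GRCm38.p6) places 8 genes listed as protein-coding, of which 7 are SLAM receptors. Slamf9 and Slamf8 follow further along. Within 5 protein-coding places of a SLAM receptor gene, Ly9 included, there were 22 other measured genes. Of these 14 were detected, or 63.6% against 59.9% of all genes, and 11 of 22 were above the level on both arrays, against 53.0% of all genes. Both shares are near those of all genes. The neighbours had a median mean level of 4.96, beside 5.21 over all genes. Of the 9 SLAM receptor genes 4 were detected and 0 were above the level on both arrays. The 8 neighbours below the level on both arrays were F11r, Itln1, Nhlh1, Kcnj9, Fcrl6, Crp, Apcs and the olfactory receptor gene Olfr16. The brightest 4 are named next. Copa, a coat protein of transport vesicles, had 10.89 in anti-CD84 cells and 10.52 in IgG1 cells. Ncstn, a subunit of gamma-secretase, had 10.10 in anti-CD84 cells and 9.53 in IgG1 cells. Tagln2, an actin-binding protein encoded between Slamf9 and Slamf8, had 10.22 in anti-CD84 cells and 10.09 in IgG1 cells. The peroxisome gene Pex19 had 8.40 in anti-CD84 cells and 8.22 in IgG1 cells.

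Next to Slamf9, Pigm, an enzyme of the lipid anchor by which proteins such as CD48 are held on the membrane, had 7.60 in anti-CD84 cells and 6.18 in IgG1 cells. It was 2.67-fold higher in anti-CD84 cells, the largest difference among the neighbours. Usf1, a transcription factor gene, was 1.53-fold lower, with 6.50 in anti-CD84 cells and 7.11 in IgG1 cells. Ncstn was 1.48-fold higher, and Alyref2 was 1.46-fold lower with 4.91 in anti-CD84 cells and 5.46 in IgG1 cells. Thus 1 of the 14 detected neighbours was 1.5-fold higher and 1 was 1.5-fold lower, or 2 of 14 against 17.1% of all detected genes.

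**Figure D4:**
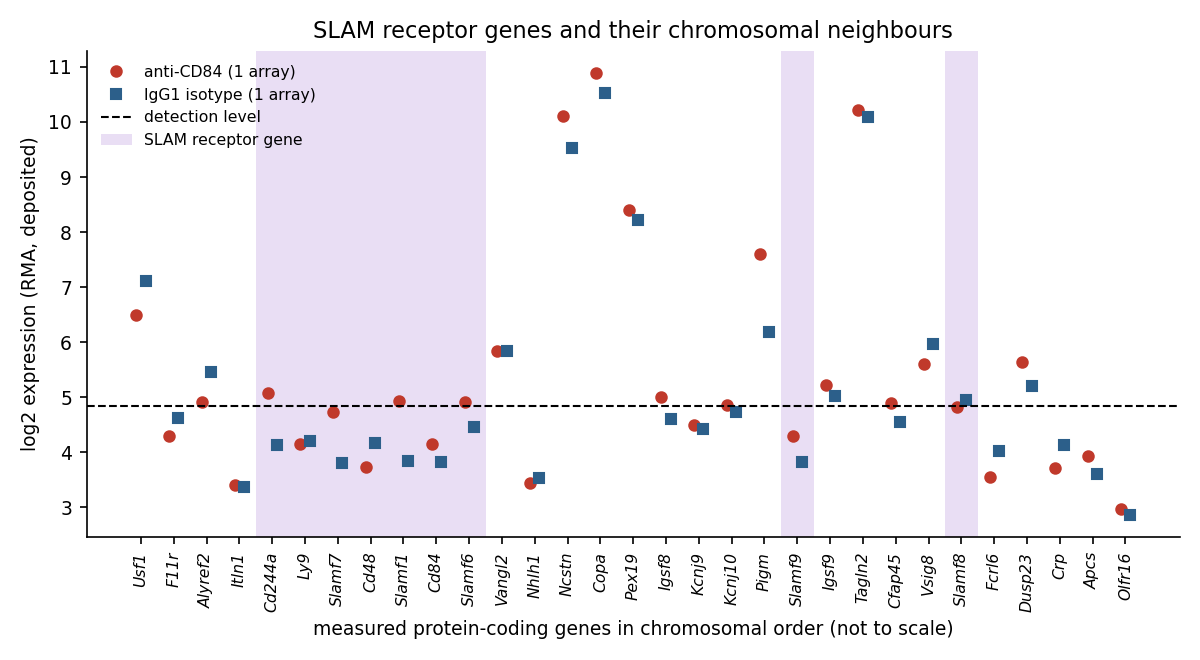
Deposited log2 expression of the measured protein-coding genes within 5 places of a SLAM receptor gene, in chromosomal order and not to scale. Red circles are the anti-CD84 array, blue squares the IgG1 isotype array, shaded columns the 9 SLAM receptor genes and the dashed line the detection level. No shaded gene is above the line on both arrays, whereas Copa, Tagln2 and Ncstn lie between 9.5 and 10.9.

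Promoter windows were compared because Fyn and the receptor genes differ so far in signal. RefSeq windows (GRCm38.p6) of 300 bases, from 250 before the start to 50 after it, matched 9 of the 10 members, all but Sh2d1a. Cd84 (chr1:171839447-171839746, plus strand) is the gene of the receptor that the antibody is named for. Slamf1 (chr1:171766882-171767181, plus strand) is, with Cd244a, one of the 2 members called by measured values. Fyn (chr10:39369549-39369848, plus strand) is the single member above the level on both arrays. The windows of these genes are shown 5′ to 3′, with every CG dinucleotide in capitals.
Cd84: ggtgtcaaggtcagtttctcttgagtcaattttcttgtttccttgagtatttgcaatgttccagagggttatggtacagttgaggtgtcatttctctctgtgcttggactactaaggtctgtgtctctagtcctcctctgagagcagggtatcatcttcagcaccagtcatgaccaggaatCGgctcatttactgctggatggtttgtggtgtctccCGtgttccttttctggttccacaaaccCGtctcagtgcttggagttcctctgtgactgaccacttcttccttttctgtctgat
Slamf1: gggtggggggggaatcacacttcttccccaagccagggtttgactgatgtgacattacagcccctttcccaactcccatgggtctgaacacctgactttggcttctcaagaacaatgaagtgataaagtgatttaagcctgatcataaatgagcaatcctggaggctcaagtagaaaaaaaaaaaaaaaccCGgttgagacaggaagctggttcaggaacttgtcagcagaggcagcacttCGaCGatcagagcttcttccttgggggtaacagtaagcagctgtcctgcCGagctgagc
Fyn: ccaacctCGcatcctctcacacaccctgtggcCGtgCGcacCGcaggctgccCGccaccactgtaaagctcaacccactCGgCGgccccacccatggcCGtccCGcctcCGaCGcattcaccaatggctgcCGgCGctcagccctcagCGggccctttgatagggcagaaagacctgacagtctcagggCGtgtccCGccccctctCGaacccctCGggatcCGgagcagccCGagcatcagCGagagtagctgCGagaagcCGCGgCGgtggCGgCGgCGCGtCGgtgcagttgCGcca

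The Fyn window holds 31 CG dinucleotides and 69.0% G or C, and 10.6% of all 32851 windows hold as many CG. Cd84 holds 3 and Slamf1 holds 4. The others are Slamf6 with 1, Cd244a with 2, Slamf7 with 3, Slamf8 with 4, Slamf9 with 6 and Cd48 with 7. The median over all windows is 7, and 51.4% of windows hold 7 or fewer. Over 15807 genes with both a window and a signal, sensory receptor genes left out, 25.3% of those with 0 to 4 CG were detected, against 86.4% of those with 20 or more. Of the 4867 genes with 7 or fewer, 30.4% were detected on at least 1 array. Of the 8 receptor genes 4 were, each on 1 array alone, and 0 were above the level on both. The share of the 4867 genes above the level on both arrays was not computed. The GGAA core that ETS factors of blood cells bind was found on either strand in 7 of 9 member windows, all but those of Fyn and Slamf6, against 96.0% of all windows. The longer GAGGAAGT, which contains GGAA, was found on either strand in 1 member window, that of Slamf9, against 3.20% of all windows. The motif TATAAA was found on either strand in 0 of 9, against 13.6%. A match describes letters and not binding.

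**Figure D5:**
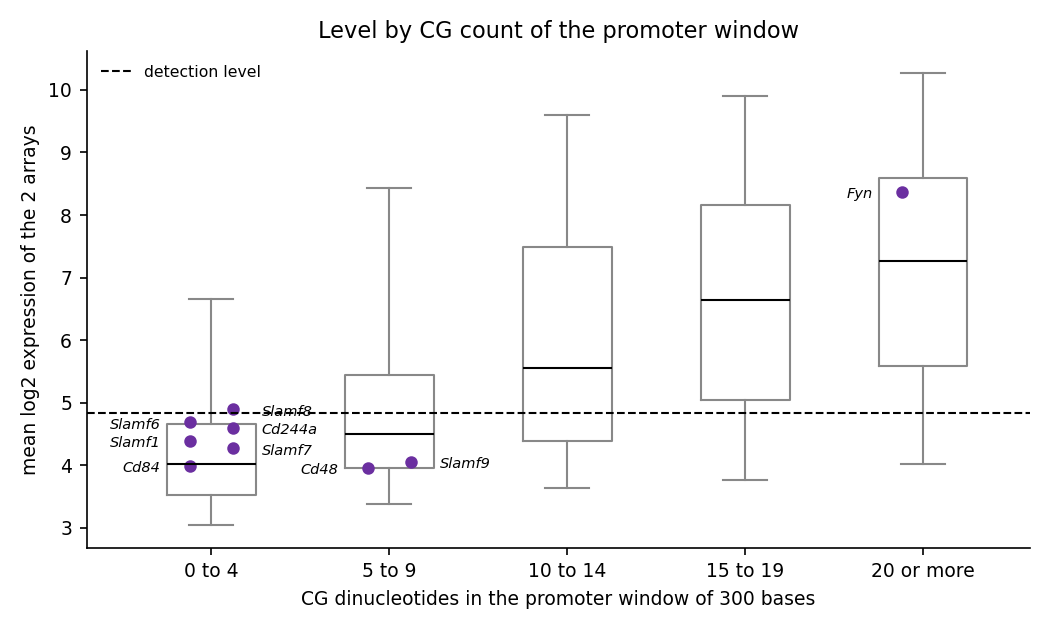
Mean log2 level of the 2 arrays by the number of CG dinucleotides in the promoter window of 300 bases. Boxes are interquartile ranges over genes with the median as a line, whiskers run from the 5th to the 95th percentile, purple points are members and the dashed line is the detection level. The 8 receptor genes have 7 CG or fewer and lie near or below the line, and Fyn has 31 and lies at 8.37.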

How the data were processed

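Total RNA (200 ng per array) of M210B4 cells, 200000 per treatment and kept at 37 °C and 5% CO2, was labelled with biotin and put on 1 array per treatment, per the labels' protocols. The authors deposited log2 values, 1 per probe set and array, made with RMA and Partek per the submitters' processing notes. Versions, settings and which arrays were normalized together are not known from those notes. RMA compresses differences of dim probe sets, so those of low genes can be understated. Of 41345 probe sets 23521 carry 1 symbol in GEO's platform annotation, 1814 carry several and were not used, and 16010 are unnamed.

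Differences are on the log2 scale, anti-CD84 minus IgG1. Called means at least 1.5-fold apart as measured, and "at least" means that a fold is counted from the detection level. Named genes were the 10 members, the other SLAM, SAP and Src family genes, the 4 brightest and 4 most different genes of each longer list and of the chromosomal neighbours, the brightest markers and the 3 genes nearest to Fyn. The members and lists were chosen with earlier results of these data known. The alternatives were 3 scalings (centring, loess with a span of 0.4 and quantile normalization), 4 other detection levels, the mean of all probe sets, flooring, and detection on both arrays or all members (chosen after seeing the data). The counting was tested on simulated data, with changes placed only in genes well above the detection level. The simulated noise was smaller than the spread between the arrays at low level. It therefore does not cover calls near the level, where every receptor gene of the family lies. Protein sequences were not analysed here. Scalings were computed with limma 3.58.1 in R 4.3.3, and all else with Python 3.11.15 (pandas 2.3.3 and numpy 2.4.6).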

Additional observations from a re-analysis of the deposited data

How the results depend on the processing

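Fyn was detected under all 4 other detection levels and on both arrays, and it was the only member detected at the 99th percentile of sensory receptor genes (5.97), at the 95th percentile of 131 keratin-associated, defensin and taste receptor genes (5.60), at the 75th percentile of all values (6.88), or where both arrays had to pass, so the count of 5 detected members became 1 in each. At the 90th percentile of sensory receptor genes (4.41) it was 7. The count of 2 members 1.5-fold apart became 0 at the same 3 higher levels, with both arrays required and with floored values, and was 2 under centring, loess and quantile normalization. The median difference of the detected members became -0.039, that of Fyn alone, at the 3 higher levels. With floored values the differences were 0.085 for Slamf1, 0.23 for Cd244a and 0 for Slamf7, Slamf9 and Cd48, which follows from the floor. The median level of the members was at the 33.6 percentile of all genes, and the detected members at the 2.66 percentile of detected genes. The 7 signalling genes 1.5-fold apart became 4 at the 99th percentile and 1 at the 75th percentile of all values, and 5 with both arrays required. Of 89 recomputed values 69 stayed within 1.5 times (counts), 5 points (percentiles) or 0.44 (differences, the standard deviation over detected genes), and 0 called differences changed sign. Part of this was fixed in advance. Centring shifts each difference by the same 0.086, and averaging probe sets changes nothing for a gene with 1 probe set. Flooring cannot turn a sign. The tally is therefore no measure of how firm the values are. No replicate could be left out and no paired analysis was possible because each group has 1 array. Signal over background limits every receptor gene of the family here.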
